A study of Rattus norvegicus with 24 samples.

Results

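Expression of 10 inflammatory cytokine and chemokine genes was examined in rat urethra after simulated birth injury. The genes were Il1b, Tnf, Il6, Il10, Ccl2, Ccl3, Ccl4, Ccl7, Cxcl1 and Cxcl2. They were taken by symbol from the table of normalised read counts, and make up 10 of its 32883 genes. All animals were female Sprague-Dawley rats, 12 weeks old, that underwent pudendal nerve crush and vaginal distension (simulated vaginal delivery, SVD), and none of the groups was uninjured. They then received an injection into the aorta of saline, of MABs allo or of MABs allo-VEGF. MABs allo are allogeneic mesoangioblasts, vessel-associated stem cells grown from the skeletal muscle of another rat and marked by a lentivirus with GFP and luciferase under the CMV promoter. For MABs allo-VEGF, a lentivirus with VEGF165 and truncated CD34 under the SFFV promoter was used. Urethras that received them are labelled VEGF OE and all others WT, although the animals themselves were not genetically changed. Whole urethra was taken at 3d or 7d, which gave 6 groups with 4 samples each. Of the 4 MABs allo-VEGF samples at 7d, replicates 6 and 7 carry the label recovery, a word that the study uses for return of urethral sphincter function. Since each sample was whole tissue, fewer cells of a type and less RNA per cell cannot be told apart. Because cells were injected, transcripts of host and of injected rat cells cannot be told apart either.

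These genes code for secreted signals of the early response to tissue injury. Interleukin 1 beta and tumour necrosis factor are made mostly by activated myeloid cells and switch on the transcription factor NF-kB in their neighbours, which in turn induces chemokine genes. Cxcl1 and Cxcl2 code for ligands of Cxcr2, the receptor that guides neutrophils. Ccl2 and Ccl7 code for ligands of Ccr2 on monocytes, and Ccl3 and Ccl4 for chemokines that attract macrophages and lymphocytes, of which Ccl3 binds Ccr1. Il6 is a broadly acting inflammatory cytokine, whereas Il10 restrains inflammation.

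Promoter sequences were at hand in RefSeq for 6 of the 10 genes, on the build GRCr8, whereas the reads were counted on Rnor6.0. The 250 bases before the start of Cxcl1 and of Cxcl2 are shown because they had the widest differences between days below. They lie near each other on chromosome 14, at chr14:17479322-17479571 and chr14:17467256-17467505, and are written 5′ to 3′ on the minus strand. Capitals mark matches to the kappaB consensus, the motif that NF-kB binds, searched by name on both strands, with overlapping matches joined.
Cxcl1: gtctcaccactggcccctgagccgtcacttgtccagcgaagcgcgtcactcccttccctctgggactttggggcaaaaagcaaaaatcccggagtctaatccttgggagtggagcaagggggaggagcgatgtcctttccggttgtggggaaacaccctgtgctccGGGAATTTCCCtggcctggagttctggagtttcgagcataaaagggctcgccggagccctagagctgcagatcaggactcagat
Cxcl2: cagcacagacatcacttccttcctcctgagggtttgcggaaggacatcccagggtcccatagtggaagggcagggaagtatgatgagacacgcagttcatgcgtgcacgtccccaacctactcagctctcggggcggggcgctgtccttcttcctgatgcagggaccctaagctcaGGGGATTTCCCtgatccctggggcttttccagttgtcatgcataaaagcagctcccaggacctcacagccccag
The match lay 84 to 74 bases before the start in Cxcl1 and 74 to 64 bases before it in Cxcl2. Il6 and Ccl7 also held a match, Il1b and Tnf held none in this window, and 6.33% of 33469 promoters of this length held one. Ccl7 alone among the 6 held the AP-1 motif TGANTCA, which was present in 6.34% of all promoters. Such matches describe the letters only and were not linked to binding.

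Library depth ranged from 2170695 to 10166052 reads, with 2170695 to 5249467 at 3d and 5244129 to 10166052 at 7d, and 1 read was worth 1.67 to 9.23 normalised counts. A gene with few reads at 3d was therefore measured less precisely than at 7d. At 3d saline libraries had 4851797 to 5249467 reads, MABs allo 2170695 to 4491900 and MABs allo-VEGF 3042531 to 4261098. Markers of smooth muscle (Acta2), striated muscle (Acta1), epithelium (Cdh1) and fibroblasts (Col1a1) were read in this tissue, and Pecam1, Trp63, Myh1, Myh2 and Col1a2 were not analysed here. The groups were not sharply separated, and over all tested genes 15 of the 24 libraries correlated best with a library of another group. Among them were saline 3d replicate 6, nearest to MABs allo 3d replicate 4 (Pearson r = 0.919), and MABs allo-VEGF 3d replicate 4, nearest to saline 3d replicate 9 (r = 0.940). Results at 3d were also computed without these 2 libraries, while the others of the 15, MABs allo 3d replicate 4 among them, were kept. Leaving out libraries that lie near another treatment can by itself widen the differences between treatments at 3d. MABs allo-VEGF 3d replicate 2 and saline 3d replicate 8 had low summed normalised counts of 9 urothelial and squamous genes (2450 and 2850, against 21221 to 79936 in the other 22 libraries), and their macrophage sums were the highest of their groups.

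All fold changes are differences of mean log2(normalised count + 1) from limma, fitted on 16287 genes with a mean of at least 2, and a gene is called at a Benjamini-Hochberg adjusted p below 0.05 over all genes with a log2 fold change beyond 1. Of the 10 genes, 9 passed the filter over the 24 samples and 8 over the samples at 7d. Il10 had 0 reads in every library, which allows up to 3 reads in the 24 together. Il6 had at most 2 reads in a library and 12 in all, so no fold change is given for it. The 8 remaining genes are shown sample by sample in the plot of log2 counts by group.

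**Figure D1:**
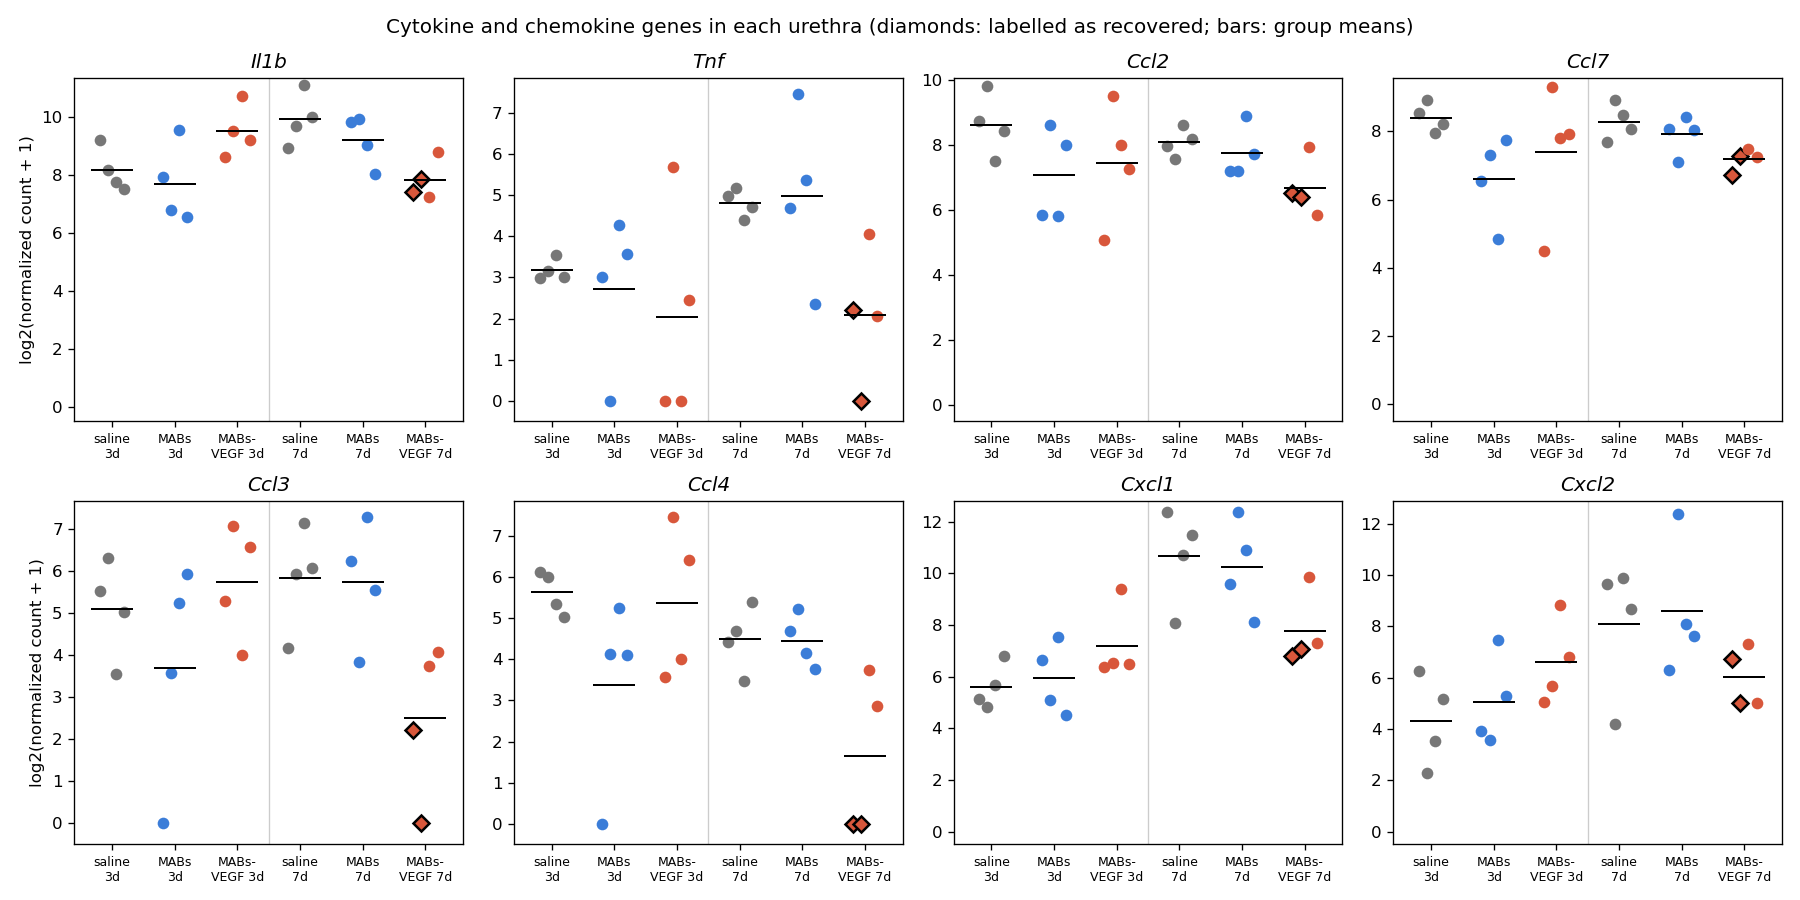
Log2(normalised count + 1) of 8 genes in each of the 24 urethras, by treatment and day. Circles are samples, diamonds are the 2 recovered samples, and bars are group means. In saline and MABs allo, Cxcl1 is at most 185 normalised counts at 3d and at least 271 at 7d.

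The first question was how the genes changed between 3d and 7d. In saline, 1 of the 9 tested genes was called (3.19% of all genes were called). In MABs allo it was 2 of 9 (23% of all genes) and in MABs allo-VEGF 3 of 9 (15.3% of all genes). Cxcl1 was called lower at 3d than at 7d in saline and in MABs allo, and Cxcl2 in MABs allo. Il1b, Ccl3 and Ccl4 were called higher at 3d than at 7d in MABs allo-VEGF. In the direction found, 0.602% of all genes were called lower in saline, 6.05% lower in MABs allo and 13.1% higher in MABs allo-VEGF. Day and depth moved together in all treatments, and the part of depth in these differences was not tested.

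Cxcl1 had the widest difference between days. In saline it had 34.4, 27.4, 50.0 and 109 normalised counts at 3d, and 5246, 271, 1668 and 2846 at 7d. The groups did not overlap (4.92% of all genes were likewise lower at 3d without overlap), and the log2 difference was -5.05 (SE 0.95, adjusted p = 0.0103 in limma). In MABs allo it had 99.4, 32.8, 185 and 21.7 at 3d, and 774, 5358, 1890.0 and 274 at 7d. Here too every sample at 3d was below every sample at 7d (9.33% of all genes), with a log2 difference of -4.30 (SE 0.95, adjusted p = 0.00166 in limma). In MABs allo-VEGF it had 81.1, 91.7, 671 and 89.1 at 3d, and 109, 134, 922 and 154 at 7d. These groups overlapped, 1 sample of each day stood well above the other 3, and the log2 difference was -0.55 (SE 0.95, adjusted p = 0.723 in limma). By mean log2 level, the order from low to high was saline 3d, MABs allo 3d, MABs allo-VEGF 3d, MABs allo-VEGF 7d, MABs allo 7d and saline 7d, and neighbours in this order overlapped. The call in MABs allo held in every alternative tried. That in saline was lost without saline 3d replicate 6 (adjusted p = 0.0508), without saline 7d replicate 5 (0.0538), without both libraries of 3d named above, and when only the saline groups were fitted (0.0724), with adjusted p up to 0.0724 over all alternatives.

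Cxcl2 followed with fewer reads. In saline it had 75.8, 3.92, 10.7 and 35.2 normalised counts at 3d, against 802, 17.4, 948 and 409 at 7d. One urethra at 7d lay within the range of 3d, and the difference of -3.78 (SE 1.27) had an adjusted p of 0.0983 in limma and 0.0109 in DESeq2. In MABs allo it had 14.2, 10.9, 175 and 38.0 at 3d, against 77.4, 5298, 270.2 and 195 at 7d. The groups overlapped, and the log2 difference of -3.53 (SE 1.27) had an adjusted p of 0.0387 in limma. Replicate 9 at 7d, with 5298, weighed on this call, which was lost without it (log2 difference -2.27, adjusted p = 0.174) and also without MABs allo 3d replicate 1, 2 or 4 or 7d replicate 11, and with sample quality weights (adjusted p = 0.102). In MABs allo-VEGF the values were 32.4, 50.0, 459 and 111 at 3d and 105, 31.4, 158 and 31.5 at 7d, with a log2 difference of 0.58 (SE 1.27, adjusted p = 0.789 in limma).

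Across the 24 samples Cxcl1 and Cxcl2 rose and fell together, with a Pearson r of 0.83 and a Spearman rho of 0.77 on the log2 scale. This describes samples that share groups and days. The genes with the most similar pattern to Cxcl1 were Nfkbiz (r = 0.84), an inducible regulator of NF-kB target genes, Cxcl2, and Zc3h12a (r = 0.83), an RNase that degrades cytokine transcripts. For Cxcl2 they were Cxcl1, Cxcl3 (r = 0.81), another Cxcr2 ligand, and Nfkbiz (r = 0.79). Nfkbiz itself was lower at 3d than at 7d in saline (log2 difference -1.57, adjusted p = 0.0379 in limma) and in MABs allo (-1.87, adjusted p = 0.00194 in limma).

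**Figure D2:**
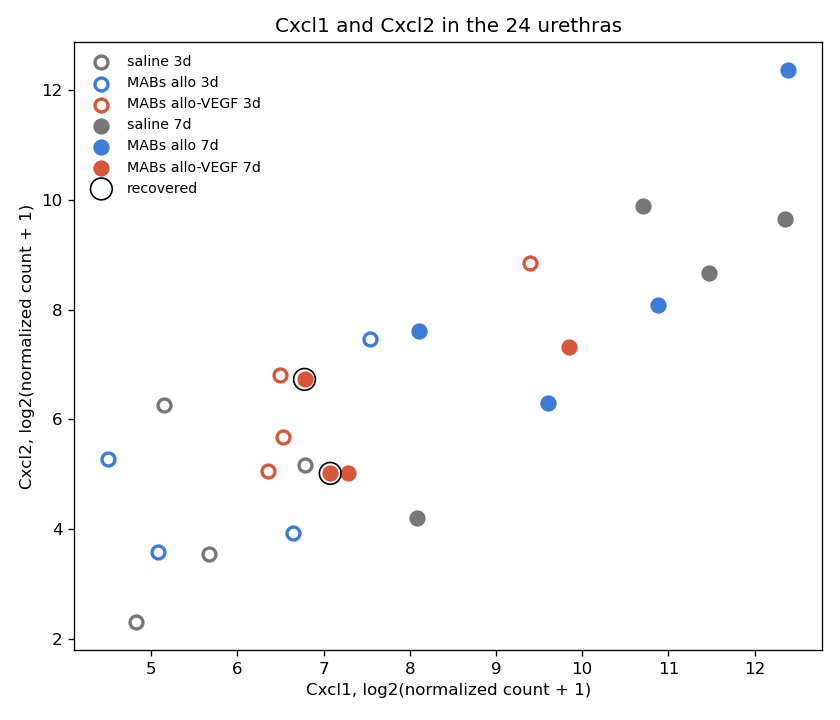
Cxcl1 against Cxcl2 as log2(normalised count + 1) in the 24 urethras. Open circles are 3d, filled circles 7d, colours are treatments and rings mark the 2 recovered samples. The samples lie along 1 band (Pearson r = 0.83), with most saline and MABs allo samples of 7d at its upper end.

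Il1b went in opposite directions between treatments. In saline it had 592, 290.1, 218 and 183 normalised counts at 3d and 494, 831, 2207 and 1022 at 7d. In MABs allo it had 241, 109, 748 and 92.2 at 3d and 908, 980.1, 525 and 261 at 7d. Both differences were negative and not called, at -1.77 (SE 0.60, adjusted p = 0.0995 in limma) and -1.51 (SE 0.60, adjusted p = 0.0582 in limma). The difference in saline was called by DESeq2 on the read counts (adjusted p = 0.0253) and with sample quality weights in limma (0.00521). That in MABs allo was called with quantile normalisation (0.0244), with scaling to the same total (0.0379) and with sample quality weights (0.0157). In MABs allo-VEGF it had 395, 733, 1680.0 and 588 at 3d and 170.5, 231, 149 and 441 at 7d. Only the lowest sample at 3d and the highest at 7d overlapped, and Il1b was called higher at 3d, by 1.69 (SE 0.60, adjusted p = 0.0480 in limma). The difference between the day changes in MABs allo-VEGF and saline was 3.46 on the log2 scale (SE 0.85). Its adjusted p was 0.474 in limma, but 0.0240 without MABs allo-VEGF replicate 4 and saline replicate 6 of 3d, and 0.0187 with sample quality weights. It ranged from 0.0187 to 0.774 over the alternatives. Those 2 libraries lay near another treatment, so leaving them out can by itself widen this difference. The authors singled out Il1b on these same samples, so the values above are no independent evidence on it.

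Ccl3 and Ccl4, both myeloid chemokines of low count here, were called higher at 3d than at 7d in MABs allo-VEGF. Ccl3 had 37.8, 133, 15.1 and 93.5 normalised counts at 3d and 3.63, 0, 12.4 and 15.8 at 7d, a log2 difference of 3.23 (SE 1.12, adjusted p = 0.0449 in limma). Ccl4 had 10.8, 175, 15.1 and 84.6 at 3d and 0, 0, 12.4 and 6.30 at 7d, a log2 difference of 3.71 (SE 1.04, adjusted p = 0.0141 in limma). For both, a sample at 3d lay within the range of 7d, and the 4 samples at 7d held 10 reads of Ccl3 and 6 of Ccl4 together. In saline the differences were -0.72 (SE 1.12) for Ccl3 and 1.13 (SE 1.04) for Ccl4, and in MABs allo -2.04 (SE 1.12) and -1.08 (SE 1.04), none of them called.

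The 3 calls in MABs allo-VEGF were lost when single libraries were left out. Without MABs allo-VEGF 3d replicate 2, which had the low urothelial sum, none of the 3 genes was called, and the same held without either recovered sample. Without both recovered samples the log2 differences were 1.51 for Il1b (adjusted p = 0.212), 1.82 for Ccl3 (0.394) and 2.06 for Ccl4 (0.275 in limma).

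**Figure D3:**
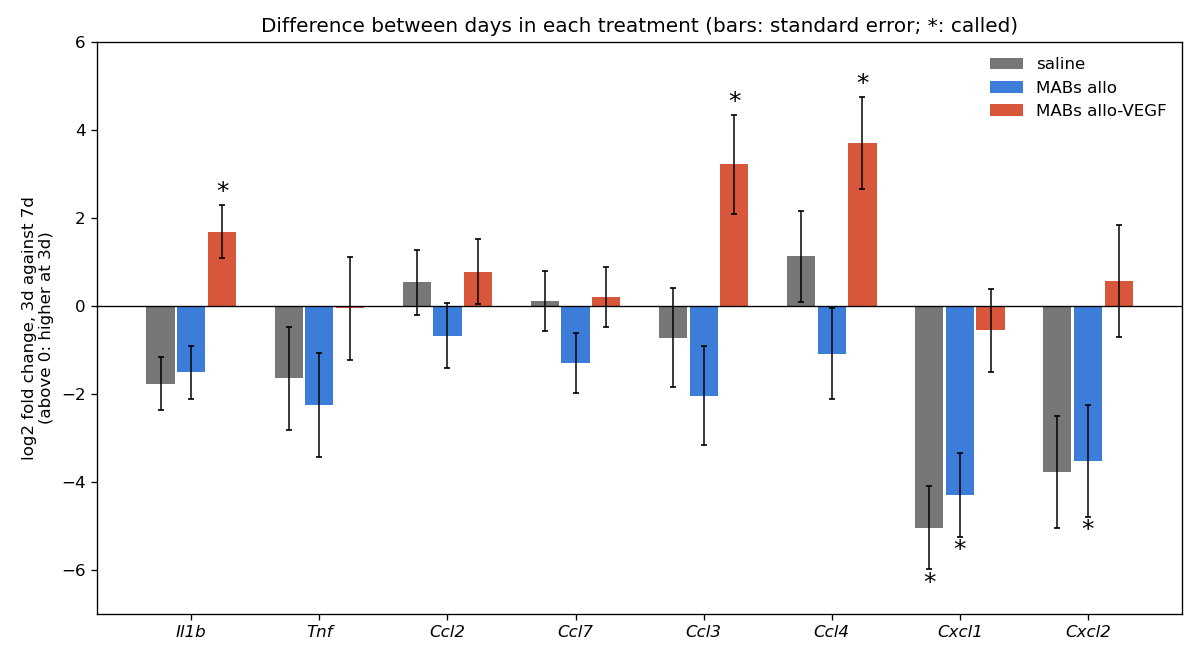
Log2 fold change of 3d against 7d for 8 genes in each treatment, with bars above 0 for genes higher at 3d. Error bars are standard errors and asterisks mark called genes. Cxcl1 stands at -5.05 in saline, -4.30 in MABs allo and -0.55 in MABs allo-VEGF, and the 3 asterisks above 0 all belong to MABs allo-VEGF.

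Ccl2, Ccl7 and Tnf were not called between days in any treatment. Ccl2 ranged from 32.4 to 894 normalised counts at 3d and from 56.7 to 472 at 7d. Ccl7 ranged from 21.6 to 633 at 3d and from 105 to 478 at 7d. These ranges overlapped widely, and the log2 differences between days lay between -0.68 and 0.78 for Ccl2 and between -1.30 and 0.20 for Ccl7. At 3d the highest Ccl2 and Ccl7 values of saline and of MABs allo-VEGF were those of the same 2 libraries with low urothelial sums, saline replicate 8 (894 and 482) and MABs allo-VEGF replicate 2 (725 and 633). The part of tissue make-up in these values was not tested. Tnf had 6.89, 7.84, 10.7 and 7.04 normalised counts in saline at 3d and 30.4, 34.8, 20.1 and 25.2 at 7d, without overlap. Its log2 difference was -1.64 (SE 1.17, adjusted p = 0.484 in limma), and the samples at 3d held only 9 reads together. In MABs allo the difference was -2.25 (SE 1.17, adjusted p = 0.152 in limma), and edgeR and DESeq2 on the read counts called it, with adjusted p of 0.0446 and 0.0442. The genes with a pattern most like Ccl2 were Npl (r = 0.84), Ccl7 (r = 0.83) and Spi1 (r = 0.82), a transcription factor of the myeloid lineage. For Tnf they were Irf1 (r = 0.77), an interferon-regulated transcription factor, Farsb (r = 0.68) and Lcmt2 (r = 0.61).

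The second question was whether the injected cells changed these genes at a given day. At 3d no member was called in any of the 3 pairs of treatments. Between MABs allo and saline 12.3% of all genes were called, between MABs allo-VEGF and saline 0.0307%, and between the cell-treated groups 0.00614%. At an unadjusted p below 0.05 in limma, 3, 1 and 1 of the 9 members passed, namely Ccl2, Ccl4 and Ccl7, lower in MABs allo than in saline, and Il1b, higher in MABs allo-VEGF than in saline and than in MABs allo. Of all genes 11.5%, 13% and 3.23% passed in these directions. Every cell-treated library at 3d was shallower than every saline one, and the part of depth in the comparisons with saline was not tested.

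In MABs allo at 3d, Ccl7 had 92.3, 159, 27.7 and 212 normalised counts, all below the 368, 482, 247 and 296 of saline (5.22% of all genes were lower without overlap). The log2 difference was -1.79 (SE 0.68, adjusted p = 0.0741 in limma). It was called when every library was scaled to the same total (adjusted p = 0.0345), after quantile normalisation (0.0400) and without MABs allo 3d replicate 4 (0.0423), and its adjusted p ranged from 0.0345 to 0.259. Ccl2 was at -1.54 (SE 0.74) and Ccl4 at -2.25 (SE 1.04), and neither was called. Of 12 tested macrophage and monocyte markers 5 were called lower in the same comparison, among them C1qb (-2.26) and Csf1r (-2.11), and of 9 mast cell markers 7, among them Cpa3 (-5.76). The summed macrophage markers ranged from 2691 to 19881 normalised counts in MABs allo and from 25302 to 54561 in saline, without overlap, and no macrophage marker was at 0 in every library. The summed mast cell markers overlapped (2407 to 6738 and 2045 to 4081). Gata2 had by far the highest mean of these markers over the 24 samples (2445, next Kit with 267), so it weighs most in their sum. Of 5 fibroblast markers 2 were called lower, and their sum was 54564 to 299904 in MABs allo and 339580 to 510379 in saline, without overlap. Of 7 endothelial markers 3 were called lower, where 12.3% of all genes were called in either direction. The part of these cells in the chemokine values was not tested. In MABs allo-VEGF against saline at 3d, Il1b was at 1.34 (SE 0.60, adjusted p = 0.235 in limma).

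At 7d no gene of the table was called between treatments, members included (0% of 16287, in limma). edgeR called none either, and DESeq2 called 0 genes between MABs allo and saline, 29 between MABs allo-VEGF and saline, and 4 between the cell-treated groups. Between MABs allo and saline the log2 differences of the 8 genes lay from -0.73 to 0.49, with standard errors from 0.60 to 1.27. None had an unadjusted p below 0.05 in limma (6.23% of all genes did). With errors of this size, wider differences in either direction are not excluded. In MABs allo-VEGF all 8 genes were at lower levels than in saline, with a median log2 difference of -2.42, against 0.01 over all genes. The same 8 were lower than in MABs allo, with a median of -2.53. Both comparisons use the same MABs allo-VEGF samples. Markers of some other cell types were also lower than in saline. The summed macrophage markers were 10003 to 23024 normalised counts in MABs allo-VEGF and 27761 to 37303 in saline, and the summed mast cell markers 1768 to 2676 and 2709 to 4876, both without overlap. Of these lists 10 of 12 and 8 of 9 genes were at lower values, none called and none at 0 in every library. By its mean over the 24 samples, Gata2 weighs most in the mast cell sum. The 8 adipocyte markers had a median sum of 1841 (634 to 4202) in MABs allo-VEGF and 29991 (3497 to 39117) in saline, with overlap. Other lists went the other way. The median fibroblast sum was 393246 in MABs allo-VEGF and 230194 in saline, and the endothelial one 7426 and 5665, both with overlap. The part of these cells in the values of the 8 genes was not tested. In each comparison, 5 of the 8 had an unadjusted p below 0.05 in limma (3.03% and 1.77% of all genes in this direction), namely Il1b, Tnf, Ccl3, Ccl4 and Cxcl1. Il1b was at -2.12 (SE 0.60) against saline, with all 4 MABs allo-VEGF samples below all 4 of saline, and its adjusted p was 0.478 in limma. Tnf (-2.73), Ccl3 (-3.32) and Ccl7 (-1.10) also did not overlap with saline (3.12% of all genes were lower without overlap), and Ccl4 (-2.80) did not overlap with MABs allo (1.09% of all genes). For 3 of these genes the gap was at most 1 read. The highest MABs allo-VEGF and lowest saline samples had 5 and 6 reads of Tnf, and 5 each of Ccl3. For Ccl4 the highest MABs allo-VEGF sample had 4 reads (12.41 normalised counts) and the lowest MABs allo sample 3 (12.45). The 4 MABs allo-VEGF samples held 7 reads of Tnf, 10 of Ccl3 and 6 of Ccl4 together. With sample quality weights Il1b, Ccl3 and Ccl4 were called against saline (adjusted p 0.0470, 0.0470 and 0.0387). Without both recovered samples, the differences from saline shrank to -1.92 for Ccl3 and -1.18 for Ccl4, while Il1b was at -1.93.

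**Figure D4:**
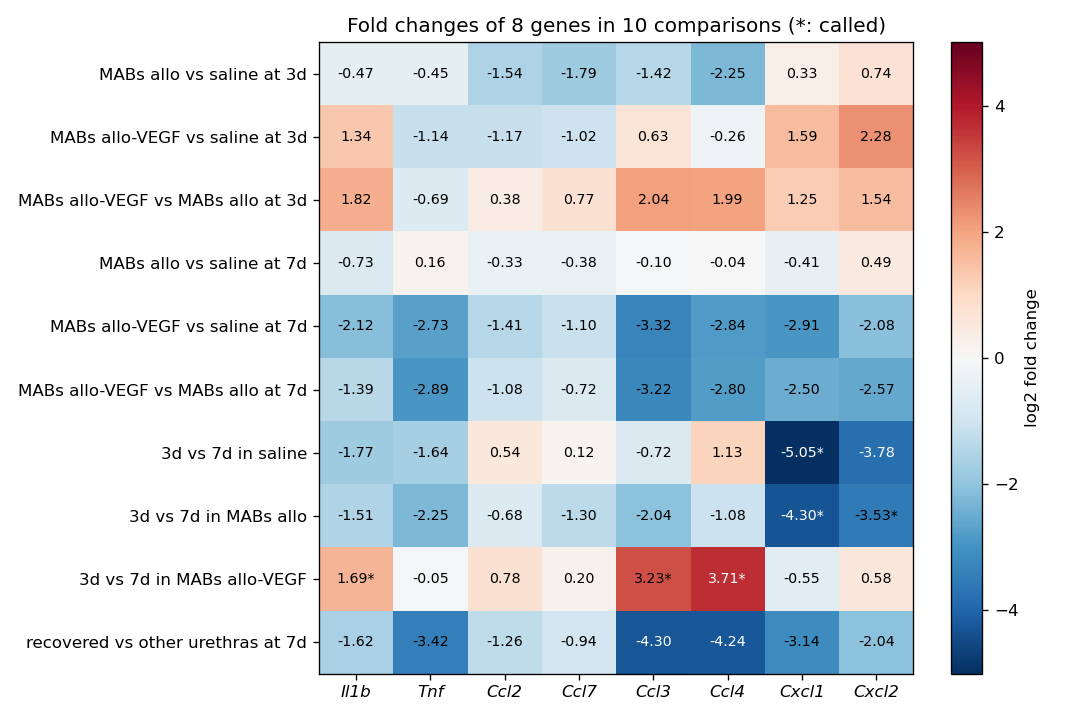
Log2 fold changes of 8 genes (columns) in 10 comparisons (rows). Red is higher and blue lower in the first named group, and asterisks mark called genes. All 8 values are negative where MABs allo-VEGF is compared at 7d with saline or with MABs allo, and in the recovered samples, where Ccl4 had 0 reads and its value depends on the pseudocount.

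The last question was how both recovered samples differed from the other 10 urethras at 7d. All 8 tested genes were lower in the recovered samples, with a median log2 difference of -2.59, or -2.07 with Ccl4 at its bound, against 0.02 over all 15285 genes. None was called, nor was any other gene of the table (0% called). At an unadjusted p below 0.05 in limma, 7 of the 8 were lower, against 2.71% of all genes. edgeR on the read counts called no gene, and DESeq2 called 13 genes, none of them a member.

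Ccl4 had 0 reads in both recovered samples and 70 in the other 10, which ranged from 6.30 to 40.9 normalised counts. With 3 reads over both samples taken as the limit, it was 4.27-fold lower, which leaves out the counting error of the 70 reads. Its adjusted p was 0.241 in limma and ranged from 0.0287, with sample quality weights, to 0.916. Ccl3 had 3.63 and 0 normalised counts in the recovered samples, against 12.4 to 155 in the others. In reads this was 1 against 233, a ratio of 0.0234 (exact 95% interval 0.000591 to 0.132, counting error only). Cxcl1 had 109 and 134, against 154 to 5358, a log2 difference of -3.14 (SE 1.08, adjusted p = 0.915 in limma). Recovered and other samples did not overlap for these 3 genes, and 1.17% of all genes were lower without overlap. Ccl3 and Ccl4 were singled out by the authors in these same samples, so their low values are no independent evidence.

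For the other 5 genes the recovered samples overlapped with the others. Tnf had 3.63 and 0, against 3.15 to 175, with 1 read against 129. Il1b had 170.5 and 231, against 149 to 2207, a log2 difference of -1.62 (SE 0.68). Ccl2 had 90.7 and 82.7, against 56.7 to 472, and Ccl7 105 and 154, against 136 to 478. Their log2 differences were -1.26 (SE 0.56) and -0.94 (SE 0.41). Cxcl2 had 105 and 31.4, against 17.4 to 5298, with a difference of -2.04.

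Both recovered samples also belong to MABs allo-VEGF, so treatment and recovery overlap in this comparison. Within the 4 MABs allo-VEGF samples at 7d, 2 with and 2 without that label, Ccl4 had 0 reads against 6. At the same limit of 3 reads it was 1.96-fold lower, which leaves out the counting error of the 6 reads. Ccl3 had 1 read against 9, a ratio of 0.113 (exact 95% interval 0.00259 to 0.819), and Tnf 1 against 6, a ratio of 0.170 (0.00370 to 1.40), both covering counting error only. The log2 differences were -1.64 for Cxcl1, -0.44 for Ccl2, -0.37 for Il1b, -0.36 for Ccl7 and -0.30 for Cxcl2. None of the 8 genes was called, and the differences of these 5 were smaller by more than 1.5 times than against all 10. So were the log2 differences of Ccl3 (-2.80, SE 1.26) and Tnf (-1.94, SE 1.46). Adipocyte markers were low in these samples too. Against all 10 others, all 8 were lower in the recovered samples (median log2 difference -5.34, none called). Their sum was 1332 and 2351 normalised counts there against 634 to 39117 in the others. Within the 4 MABs allo-VEGF samples it ranged from 634 to 4202, so the recovered sums lay inside the range of the other 2. The authors singled out Adipoq, Plin1, Cidec, Retn, Pck1 and Aqp7 in these same samples, so their low values are no independent evidence. The part of adipocytes in the result was not tested.

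**Figure D5:**
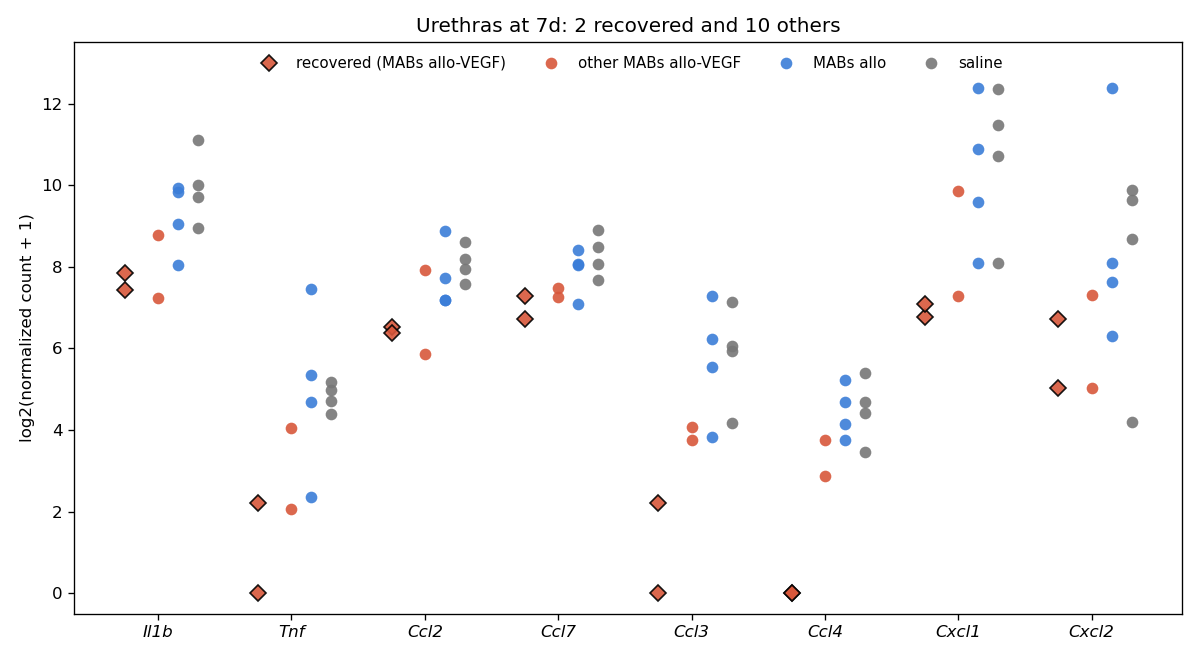
Log2(normalised count + 1) of 8 genes in the 12 urethras at 7d. Diamonds are the 2 recovered samples and circles the other 10, coloured by treatment. Both diamonds of Ccl4 lie at 0 and those of Ccl3 and Cxcl1 lie below every circle.

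Receptors and partners of these cytokines were read in the same fits. Between days, 3.19% of all genes were called in saline, 23% in MABs allo and 15.3% in MABs allo-VEGF. The counts of called genes below stand beside these shares, and whether they exceed them was not tested. Of the chemokine receptor genes tested, none was called between days in saline or MABs allo. Ccr2, the receptor of Ccl2 and Ccl7, and Ackr1 had no entry by symbol, and Cxcr1 was at 0 in every library. These 3 were therefore not tested. In MABs allo-VEGF, Ccr1 was called higher at 3d than at 7d, and it ranged from 8.91 to 121 normalised counts at 3d and had 0 in all 4 samples at 7d. Of 27 other chemokine genes, 1 was called higher (Ccl12, 4.15) and 1 lower (Ccl11, -1.29) in that treatment, and 3 were lower at 3d in MABs allo, namely Cxcl16, Ccl19 and Ccl17. In the IL-1 pathway, Il1r1, the signalling receptor, and Nlrp3, the sensor that drives release of mature interleukin 1 beta, were called higher at 3d in both cell-treated groups, whereas Il1rn, the receptor antagonist, was lower at 3d in MABs allo (-1.58, adjusted p = 0.0224 in limma). Nlrp3 ranged from 63.9 to 369 normalised counts in MABs allo at 3d and from 8.30 to 19.9 at 7d, without overlap. Of 13 NF-kB factors and inhibitors, Rel and Nfkbie were higher and Nfkbiz, Nfkbia and Nfkbib lower at 3d in MABs allo. Of 15 immediate early genes, which respond within minutes to stress or handling of tissue, 1 was lower at 3d in saline, 5 in MABs allo and 6 in MABs allo-VEGF, and Junb was among them in all 3. Adipocyte markers were lower at 3d for 4 of 8 genes in saline, 8 of 8 in MABs allo and 0 of 8 in MABs allo-VEGF, the same treatments in which Cxcl1 was and was not called. Their summed level at 7d was 3497 to 39117 normalised counts in saline, 1185 to 38446 in MABs allo and 634 to 4202 in MABs allo-VEGF, and the part of these cells in the values of Cxcl1 and Cxcl2 was not tested. In the TNF pathway 1 of 6 genes was lower at 3d in MABs allo and 1 higher in MABs allo-VEGF, and in the IL-6 and IL-10 pathways 1, 4 and 3 of 10 were higher in saline, MABs allo and MABs allo-VEGF. Macrophage markers were lower at 3d for 3 of 12 and mast cell markers for 7 of 9 in MABs allo, with none called in the other treatments. Of smooth muscle genes 2, 3 and 1 of 8 were lower in the 3 treatments, and of 7 T cell genes 1 was higher in each cell-treated group. Of 7 endothelial genes 1 was higher in saline, while 2 in MABs allo and 1 in MABs allo-VEGF were lower. Of 9 urothelial and squamous genes 1 was lower in saline, and in MABs allo 1 was higher and 1 lower. No striated muscle, fibroblast or B cell gene was called between days. Neutrophil markers were lower at 3d for 2 of 9 genes in MABs allo (Mpo and S100a9), and 1 of 9 (Csf3r) was higher at 3d in MABs allo-VEGF.

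The difference between day changes was tested directly. Against saline, the change from 7d to 3d in MABs allo-VEGF was more positive for all 8 genes, by a median of 3.02 on the log2 scale, and against MABs allo by 3.48. The values were 4.50 (SE 1.34) for Cxcl1, 4.36 (SE 1.80) for Cxcl2 and 3.95 (SE 1.59) for Ccl3 against saline. Against MABs allo, Ccl3 was at 5.26 (SE 1.59) and Ccl4 at 4.79 (SE 1.47). None was called in either test, with adjusted p of at least 0.474 in limma, and 4 and 5 of the 8 had an unadjusted p below 0.05. Across all genes 5.4% and 2.98% passed that mark in this direction, and 0% and 0.00614% were called. Between MABs allo and saline no day change of a member was called different either (0% of all genes).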

How the data were processed

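RNA of 24 rat urethras was read as 3′ libraries (QuantSeq). The authors aligned reads to Rnor6.0 with HISAT2, discarded reads with several positions, counted genes with HTSeq and deposited counts divided by DESeq2 size factors, here treated as a signal and called normalised counts. The version of HISAT2 is not given in the sources used here. Every deposited value was a whole multiple of 1 read (100% within 0.01), so read counts were recovered for the count tests and depth. Library depth was 2170695 to 10166052 reads. All 24 columns matched a labelled sample. Nothing says how the samples of a group were spread over litters or batches, so the p-values measure the spread between these rats.

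For 1 fit of 6 groups, log2(normalised count + 1) of genes with a mean of at least 2 was tested in limma 3.58.1 (R 4.3.3) with an intensity trend, two-sided, with Benjamini-Hochberg adjustment over 16287 genes, or over 15285 for 2 recovered against 10 other samples at 7d. A gene was called where its log2 fold change passed 1 and its adjusted p stayed under 0.05. The scripts were tested on simulated data. The 10 genes were described whatever their values. From the other lists (IL-1, TNF, IL-6 and IL-10 pathways, NF-kB, chemokine receptors, other chemokines, immediate early genes and 11 cell types), called genes were named, up to 4 of smallest adjusted p and up to 3 of highest level, and for each member the 3 genes of highest Pearson r. Members and lists were chosen with earlier results of these data known. For a symbol with several identifiers, the one with the highest mean was used. The exact interval of a ratio of reads is the binomial one and covers counting error only.

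Alternatives were a pseudocount of 5, no filter or a mean of 10, quantile or total scaling, edgeR 4.0.16 with TMM, DESeq2 1.42.0, sample quality weights, other choices of samples, a replicate block and leaving out each replicate. The difference between day changes of both cell-treated groups, and the fits without both recovered samples, were added after seeing the data. Not every result on the listed genes is reported here.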

Additional observations from a re-analysis of the deposited data

Results flagged for a closer look

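In 63 groups of 4 to 10 samples (the 6 groups and the 10 urethras at 7d without the recovered label, for each of 9 genes), the highest or lowest sample was set apart by its gap to the next, and 13 such samples were found. The limits used mark about 1 in 20 groups by chance only where values are normally distributed. These counts are skewed and some groups share samples, so 13 of 63 is no measure of an excess. For Cxcl2, MABs allo 7d replicate 9 had 5298 normalised counts, the next in its group having 270.2, and it was also apart among the 10 urethras at 7d. The same library had the highest Tnf of those 10, with 175. Of Cxcl2 at 3d, MABs allo replicate 3 had 175. Of Cxcl1, MABs allo-VEGF replicate 3 had 671 at 3d and replicate 11 had 922 at 7d. Of Tnf, MABs allo-VEGF 3d replicate 2 had 50.0. Of Il1b, saline 7d replicate 3 had 2207 among the 10 urethras at 7d.

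For Il6 the single samples with a read were set apart from zeros, which is a matter of 1 or 2 reads. They were saline 3d replicate 6 with 3.44 normalised counts, MABs allo 3d replicate 3 with 9.23, saline 7d replicate 3 with 3.35 and MABs allo 7d replicate 11 with 3.34. In MABs allo-VEGF at 7d it was the lowest, replicate 7 with 0. These values were not tested further.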

How the results depend on the processing

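Of the 6 called differences, that of Cxcl1 between days in MABs allo kept its direction and its call in all 18 alternatives, and none of the 6 changed direction in any alternative. The number of members called, with the value used in the report in parentheses, changed as follows. Between days in saline (1) it was 0 when only the groups compared were fitted, 0 without MABs allo-VEGF replicate 4 and saline replicate 6 of 3d, 3 with DESeq2 and 2 with sample quality weights. In MABs allo (2) it was 4 with quantile normalisation, and 3 when scaled to the same total, with edgeR, with DESeq2 and with sample quality weights. In MABs allo-VEGF (3) it was 1 with no filter, 1 with quantile normalisation, 1 when only the groups compared were fitted, 0 without both recovered samples, and 2 when scaled to the same total and without the same 2 libraries of 3d. Between MABs allo and saline at 3d (0) it was 1 with quantile normalisation and 1 when scaled to the same total. With sample quality weights it was 1 for MABs allo-VEGF against saline at 3d, 3 at 7d, 1 for the recovered samples and 1 for the difference between day changes of MABs allo-VEGF and saline, which was also 1 without the 2 libraries at 3d named above (0 in each in the report). Leaving out each replicate gave 0 to 2 called in saline, 1 to 3 in MABs allo, 0 to 3 in MABs allo-VEGF and 0 to 1 for MABs allo against saline at 3d. The cause was not tested. Over all genes, calls between days in saline (520) ranged from 0 when only the groups compared were fitted, and 31 without the same 2 libraries, to 1852 with sample quality weights. Those between MABs allo-VEGF and saline at 3d (5) ranged from 0 to 2213, with 397 in DESeq2. The 2213 came without the 2 libraries, a choice that can by itself widen this difference. Between MABs allo and saline at 3d (1997) there were 5 when only these groups were fitted. With the replicate block, 0 members were called between both cell-treated groups at 3d, as without it. Same-numbered samples of these groups had deviations correlated at 0.22, 0.15, 0.07 and 0.25, so the numbers were not taken to pair the samples. Read numbers limit Tnf, Ccl3 and Ccl4, with at most 53, 93 and 21 reads in a library, and leave Il6 and Il10 without a usable level. No annotation of Rnor6.0 was used here.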
